A study of Mus musculus with 2 samples.

Results

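The genes described here were 8 keratins (Krt5, Krt14, Krt15, Krt17, Krt10, Krt1, Krt8 and Krt18) and 2 genes of odontogenic epithelium (Odam and Amtn), 10 of the 32285 genes listed in each count matrix, picked by their symbols. They were followed in single cell barcodes of mouse periodontal ligament, the connective tissue that ties the tooth root to the socket, and in particular in the barcodes of epithelial cells that came along with it. The orthodontic tooth movement (OTM) library came from the upper left first molars of 8-week-old male C57BL/6J mice after 6 days of mesial pull with 10 g, and the control library from the right side, which carried no load. Each library pooled tissue on the roots and in the sockets of 5 mice, so each condition was 1 library, no spread between animals could be had, and no test between the libraries was possible. All intervals below are exact 95% intervals (Clopper-Pearson for shares, Poisson for levels, conditional binomial for ratios) and cover counting error only.

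Epithelial intermediate filaments are built from pairs of a type I and a type II keratin. Krt5 pairs with Krt14 in basal cells of stratified epithelia, with Krt15 as a further basal type I keratin; Krt1 and Krt10 replace them in the cornifying layers above; Krt8 and Krt18 are the pair of simple epithelia; and Krt17 is induced in wounded and activated epithelium. Odam (odontogenic ameloblast-associated) and Amtn (amelotin) encode secreted proteins of maturation-stage ameloblasts and of the junctional epithelium, the collar of gingiva that attaches to the tooth. The periodontal ligament also holds remnants of the epithelial root sheath, the rests of Malassez, and pieces of gingiva can remain on an extracted tooth, so several epithelia could have contributed.

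In the GRCm38 assembly with GENCODE M21, the type I genes lay on the minus strand of chromosome 11, with Krt10 at 99385254 to 99389364, Krt15 at 100131758 to 100135928, Krt14 at 100203162 to 100207548 and Krt17 at 100256217 to 100261029. The type II genes lay on the minus strand of chromosome 15, with Krt5 at 101707070 to 101712898, Krt1 at 101845426 to 101850794 and Krt8 at 101996698 to 102004482. Krt18, a type I gene, lay apart from the other type I genes, next to Krt8 on the plus strand of chromosome 15 at 102028180 to 102032027. Odam (chromosome 5, 87885029 to 87894174, plus strand) and Amtn (chromosome 5, 88376108 to 88385916, plus strand) were 481933 bases apart. All spans are of whole genes, with exons and introns together.

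Odam and Amtn were detected together in part of the epithelial barcodes, so the 250 bases before their transcription starts are shown beside those of Krt5, which was on in nearly all of them. Sequences are from RefSeq, build GRCm38.p6, 5′ to 3′ on the gene's strand, and capitals mark matches to the motifs searched on both strands. The windows are chr5:87884760-87885009 (plus strand) for Odam, chr5:88375858-88376107 (plus strand) for Amtn and chr15:101712906-101713155 (minus strand) for Krt5.
Odam: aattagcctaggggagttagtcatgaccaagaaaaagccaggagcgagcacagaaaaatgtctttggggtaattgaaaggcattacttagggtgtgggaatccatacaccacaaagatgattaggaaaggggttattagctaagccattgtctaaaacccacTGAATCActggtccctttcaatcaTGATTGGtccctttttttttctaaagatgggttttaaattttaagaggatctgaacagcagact
Amtn: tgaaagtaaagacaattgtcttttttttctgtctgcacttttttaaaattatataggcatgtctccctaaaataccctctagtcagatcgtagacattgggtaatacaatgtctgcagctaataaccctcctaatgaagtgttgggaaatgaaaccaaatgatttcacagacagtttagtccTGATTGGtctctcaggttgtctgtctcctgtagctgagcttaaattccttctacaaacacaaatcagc
Krt5: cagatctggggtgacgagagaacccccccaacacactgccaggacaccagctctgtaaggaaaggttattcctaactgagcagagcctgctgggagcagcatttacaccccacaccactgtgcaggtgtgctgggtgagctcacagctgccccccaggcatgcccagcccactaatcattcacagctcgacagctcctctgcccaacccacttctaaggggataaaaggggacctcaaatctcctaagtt
The motifs were TATAAA, the AP-1 motif TGANTCA and the CCAAT-box form CCAATCA, which was added after the sequences had been seen. In Odam, TGANTCA stood 88 bases and CCAATCA (on the opposite strand, so printed as TGATTGG) 64 bases before the start. The TGANTCA match there read TGAATCA, and whether AP-1 binds it was not tested. In Amtn, CCAATCA stood on the opposite strand 68 bases before the start. Krt5 held none of the 3 motifs in this window. Among 32851 promoters of the same length, 6.75% held TGANTCA, 7.23% CCAATCA and 12.4% TATAAA. Windows were at hand for 7 of the 10 genes, and of these Krt10 alone held TATAAA, 26 bases before its start. The Krt14 window lay wholly inside the gene span given above, so the bases before the GENCODE start of Krt14 were not searched. The windows of Krt8 and Krt18 overlapped their gene spans in part.

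The OTM matrix held 1539 barcodes and the control matrix 369, with no barcode in common, where about 5000 cells per library had been aimed for, and their median totals were 18128 and 14107 unique molecular identifiers (UMIs, 1 per captured RNA molecule). Barcodes with at least 200 genes and at most 20% mitochondrial UMIs were kept, 1412 of OTM and 348 of control. They were clustered without the 10 genes, and clusters were named from markers that did not include them. The epithelial cluster held 126 OTM barcodes (8.92%, 7.49 to 10.5) and 20 control barcodes (5.75%, 3.55 to 8.74), with medians of 34944 UMIs in OTM and 14008.5 UMIs in control. All 12 epithelial markers (Epcam, Cdh1, Trp63, Dsp and others) were detected, at a median of 10 per barcode, and none of these barcodes was called a doublet. Markers of other cells moved with the library: in epithelial barcodes the 12 fibroblast markers summed to 3868 CPM (UMIs per 1000000 summed UMIs) in OTM and 648 CPM in control. Postn made up most of the control sum, at 530 CPM, and was at 83.8 CPM in OTM, against the direction of the sum. In OTM 10341 of 10453 Col1a1 UMIs lay in 6 barcodes with at least 100 each, and no control barcode had as many. How log2 ratios and shares stood without these 6 is in the closing section. Neutrophil markers summed to 5106 CPM in OTM and 4396 CPM in control, nearly all from S100a8 and S100a9, which stressed keratinocytes also express. Of the others, Ltf had 790 UMIs in OTM and 0 in control. Csf3r had 1 UMI in OTM and 0 in control, and the rest had at most 8 UMIs in a library. The part of these markers of other cells in the results was not tested.

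The basal pair Krt5 and Krt14 was present in nearly all epithelial barcodes of both libraries. Krt14 differed little between the libraries, while Krt5 was lower in OTM but within 2-fold. Krt14 had 5 UMIs in the lowest, a median of 433 and 3542 in the highest OTM barcode, and 5, 254 and 1487 UMIs in control barcodes. Scaled to 10000 UMIs of the barcode, its median was 130 in OTM and 129 in control, and the ranges overlapped almost whole. A gene was called on in a barcode with at least 3 UMIs that also made up at least 1 in 10000 of its UMIs. Krt14 was on in 126 of 126 OTM barcodes and 20 of 20 control barcodes, against 3 of 1286 and 1 of 328 barcodes of all other cell types. Summed over epithelial barcodes it reached 13932 CPM in OTM and 14737 CPM in control, a log2 ratio of OTM over control of -0.08 (-0.12 to -0.04).

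Krt5 had 0 UMIs in the lowest, a median of 136 and 1624 in the highest OTM barcode, and 4, 103.5 and 750 UMIs in control barcodes. It was on in 122 of 126 OTM barcodes and 20 of 20 control barcodes, and summed to 4018 CPM in OTM and 6293 CPM in control (log2 -0.65, -0.71 to -0.59). Of the 4 OTM barcodes in which it was off, 3 were shallow, with 2422 UMIs or fewer, but the other had 62365 UMIs with Krt14 at 1094, Krt6a at 942, Krt6b at 1143 and Krt5 at 0 UMIs. Over barcodes, Krt5 and Krt14 per 10000 UMIs went together with a Spearman rho of 0.55 across the 126 OTM barcodes and 0.78 across the 20 control barcodes, which share library and scaling.

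Krt15 differed most from its basal partners. It was on in 8 of 126 OTM barcodes (6.35%, 2.78 to 12.1) and in 0 of 20 control barcodes, a count that allows a share of up to 16.8%. The 8 barcodes held 123, 58, 42, 14, 12, 11, 9 and 7 Krt15 UMIs, and the control library held 1 UMI in all. The sums were 285 UMIs (51.7 CPM) in OTM and 1 UMI (2.37 CPM) in control, a log2 ratio of 4.44 with a counting interval of 1.95 to 9.75. The highest barcode carried 43.2% of the OTM sum. Krt5 and Krt14 were on in all 8, while Odam was on in 1 of them (12.5%), against 72.9% of the 118 OTM barcodes with Krt15 off. The exception had 12 Krt15 and 335 Odam UMIs.

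Krt17, a keratin linked to activated epithelium, was on in 117 of 126 OTM barcodes and in 18 of 20 barcodes of the control, which carried no load. OTM barcodes had 0 UMIs in the lowest, a median of 227.5 and 1738 in the highest, and control barcodes 0, 86.5 and 1257 UMIs. The sums were 7714 CPM in OTM and 8338 CPM in control (log2 -0.11, -0.16 to -0.06). The 9 OTM barcodes with Krt17 off were not only shallow ones, since they reached 62365 UMIs, and their Krt14 was at 23986 CPM, against 13603 CPM in OTM barcodes with Krt17 on.

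The keratins of the cornifying layers were rare in both libraries. Krt10 was on in 3 of 126 OTM barcodes and 1 of 20 control barcodes, with sums of 235 UMIs (42.6 CPM) in OTM and 11 UMIs (26.1 CPM) in control. The interval of the log2 ratio of 0.71 ran from -0.16 to 1.73, and a difference was not detectable at this depth; without the barcode with most Krt10 in each library the levels were 24.2 CPM in OTM and 19.4 CPM in control. Krt1 had 72 UMIs in OTM, all in 1 barcode, and 0 in control, where the floor of 3 UMIs is 7.12 CPM, so that its OTM level of 13.1 CPM was at least 1.83-fold higher. That barcode, of 181895 UMIs, held 106 Krt10, 72 Krt1 and 123 Krt15 UMIs together with 607 Krt5 and 1403 Krt14 UMIs, and no Odam. It was the sole barcode with the Krt1 and Krt10 pair.

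The simple pair was nearly absent as a pair. Krt8 had 15 UMIs in OTM, 12 of them in 1 barcode that also held 8 Krt18 UMIs, and 0 UMIs in control. Krt18 was on in 8 of 126 OTM barcodes and 0 of 20 control barcodes, with 4 to 17 UMIs each, and Krt8 was on in 1 of those 8. Its sums were 140 UMIs (25.4 CPM) in OTM and 2 UMIs (4.75 CPM) in control (log2 2.42, 0.54 to 5.48). All 8 Krt18 barcodes had Krt17 on and 6 had Odam on, at 5 to 67 Odam UMIs.

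**Figure D1:**
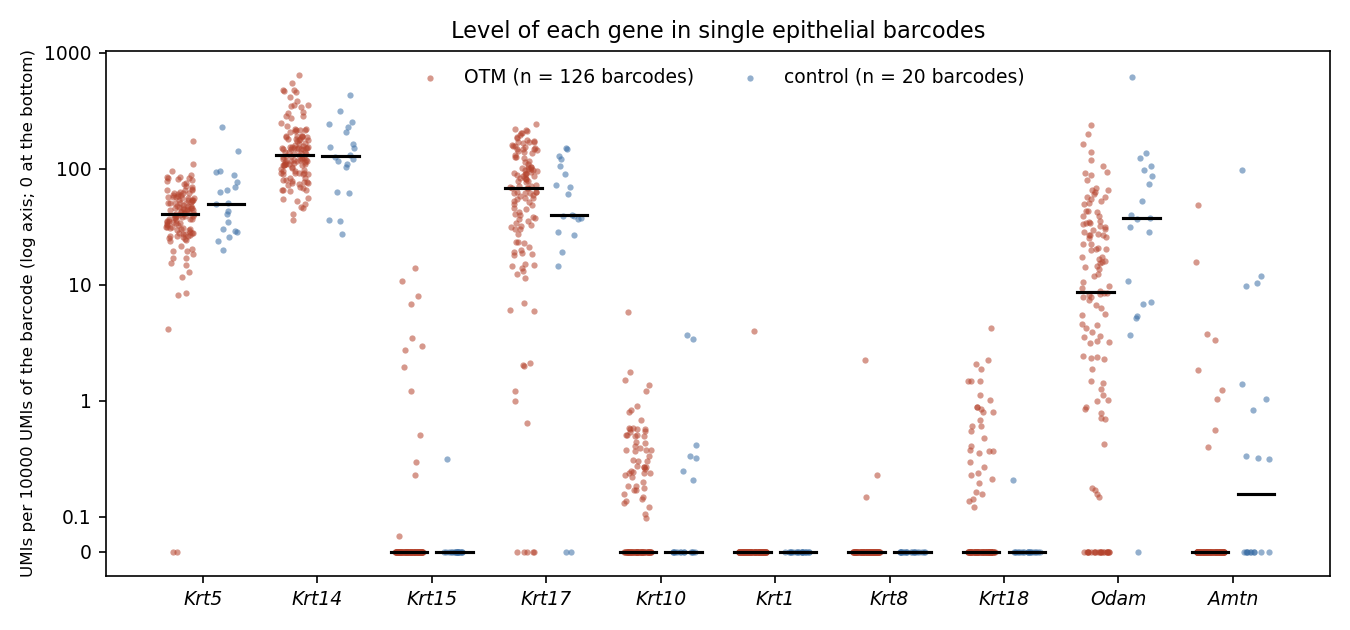
UMIs per 10000 UMIs of the barcode on a log axis, with 0 at the bottom, for the 10 genes in the 126 OTM (left of each pair) and 20 control (right) epithelial barcodes; each point is a barcode and black lines are medians. Krt14 sits at medians of 130 in OTM and 129 in control, while Odam sits at 8.67 in OTM and 37.3 in control.

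Odam and Amtn, the genes of odontogenic epithelium, were lower in the OTM library. Odam had 0 UMIs in the lowest, a median of 17.5 and 1555 in the highest OTM barcode, and 0, 35.5 and 2448 UMIs in control barcodes. It was on in 87 of 126 OTM barcodes (69.0%, 60.2 to 77.0) and 19 of 20 control barcodes (95%, 75.1 to 99.9). It was on in 1 of 1286 OTM and 0 of 328 control barcodes of other cell types, whose median totals were 18802 and 14877 UMIs. The sums were 2575 CPM in OTM and 9518 CPM in control (log2 -1.89, -1.94 to -1.83). A control barcode with 2448 Odam UMIs carried 61.1% of the control sum: without the highest barcode of each library the levels were 2341 CPM in OTM and 4094 CPM in control, a log2 ratio of -0.81, which is within 2-fold.

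Amtn was on in 6 of 126 OTM barcodes (4.76%, 1.77 to 10.1) and 6 of 20 control barcodes (30.0%, 11.9 to 54.3). The 6 OTM barcodes held 4 to 130 Amtn UMIs and the 6 control barcodes 4 to 390. The sums were 51.9 CPM in OTM and 1047 CPM in control (log2 -4.34, -4.56 to -4.12), but the same control barcode that led Odam held 390 of the 441 control Amtn UMIs. Without the highest barcode of each library the levels were 28.7 CPM in OTM and 134 CPM in control (log2 -2.22). Amtn lay almost wholly within Odam barcodes: Odam was on in 6 of 6 Amtn barcodes of OTM and 5 of 6 of control, and the remaining control barcode had 7 Amtn and 0 Odam UMIs. The reverse did not hold, since Amtn was off in 81 of 87 OTM and 14 of 19 control barcodes with Odam on. In Amtn barcodes Odam reached 10229 CPM in OTM and 14783 CPM in control, against 2920 CPM in OTM and 4926 CPM in control where Odam was on and Amtn off. Without the barcode with most Odam in each of these sets, Odam was at 7361 CPM in OTM and 2896 CPM in control in Amtn barcodes, and at 2600 CPM in OTM and 4034 CPM in control where Amtn was off. In control the order of the Amtn barcodes and the others therefore turned without the barcode with 2448 Odam UMIs. Over all epithelial barcodes of a library, the log levels of Odam and Amtn had a Pearson's r of 0.32 and a Spearman rho of 0.29 across 126 OTM barcodes, and 0.02 and -0.24 across 20 control barcodes. Krt15 had 0 UMIs in all 12 Amtn barcodes. It also had 0 UMIs in 113 of all 126 OTM and 19 of all 20 control epithelial barcodes, so this cannot show exclusion.

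Against the rest of the transcriptome these ratios were read as follows. Of 7096 genes with at least 20 UMIs in the library with the higher level, 8.91% were at least 2-fold higher in OTM epithelial barcodes and 5.68% at least 2-fold lower, with a median log2 ratio of 0.07. Of the 10 genes, 9 met that minimum; Krt15 and Krt18 were at least 2-fold higher (log2 2.86 and 1.83 with their control sums, which were under the floor, raised to 3 UMIs), Odam and Amtn at least 2-fold lower, and Krt5, Krt14, Krt17, Krt10 and Krt1 within 2-fold, with a median of -0.08. Krt8 had too few UMIs. The control library had 421108 epithelial UMIs and OTM 5513212, so a gene with no control UMI could be called higher only when abundant in OTM.

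Basal keratins, Krt17 and Odam or Amtn were mostly on in the same barcode. Odam and Amtn are called junctional genes below as a label. From which epithelium the barcodes came, and whether Krt17 marked activated cells, was not tested. At least 1 of Krt5, Krt14 and Krt15 was on in every epithelial barcode of both libraries. The combination of a basal keratin, Krt17 and Odam or Amtn, with no simple or cornifying keratin, was the commonest in both: 78 of 126 OTM barcodes (61.9%, 52.8 to 70.4) and 17 of 20 control barcodes (85.0%, 62.1 to 96.8). Basal keratin with Krt17 and no other group came next in OTM, with 28 of 126 barcodes (22.2%, 15.3 to 30.5), against 0 of 20 in control, which allows up to 16.8%. Basal keratin alone was seen in 6 OTM barcodes and 0 control barcodes, and basal with junctional genes but no Krt17 in 3 OTM and 2 control barcodes. A simple keratin joined basal keratin, Krt17 and junctional genes in 6 OTM barcodes, and basal keratin and Krt17 without junctional genes in 2, with 0 control barcodes in either. Cornifying keratins joined basal keratin and Krt17 in 3 OTM barcodes, all with Odam and Amtn off, and in 1 control barcode, which had 3 Krt10, 3 Odam and 8 Amtn UMIs. Read at 1500 UMIs per barcode, where 121 OTM and 19 control barcodes could be thinned (5 and 1 were too shallow) and a gene counts as on at 1 UMI, Odam was on in 72 OTM barcodes (59.5%) and 17 control barcodes (89.5%). A second random thinning to the same depth gave 62.8% in OTM and 94.7% in control.

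**Figure D2:**
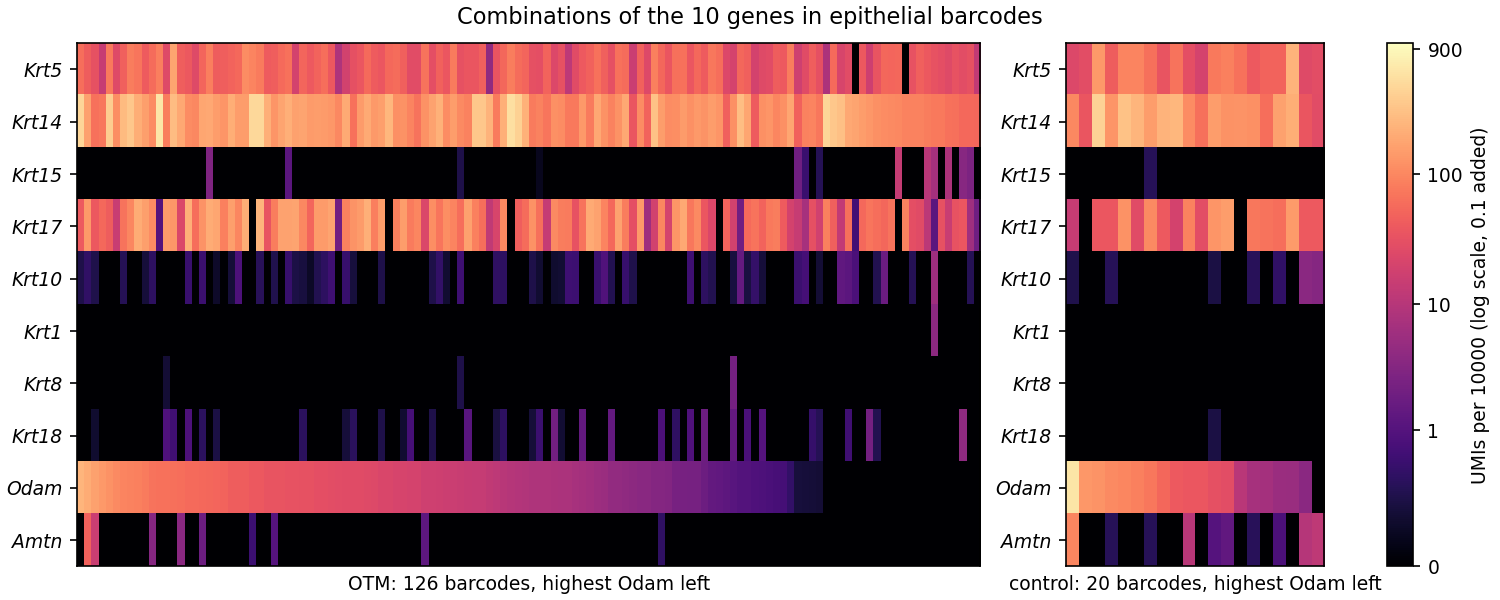
Each column is an epithelial barcode (126 OTM left, 20 control right) ordered from highest to lowest Odam, each row a gene, and the colour the UMIs per 10000 UMIs of the barcode on a log scale with 0.1 added. Krt5, Krt14 and Krt17 run across nearly all columns, Krt15 gathers in OTM barcodes at the low end of Odam, and Amtn is on in 6 barcodes of each library.

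The epithelial barcodes were sub-clustered without the 10 genes, which gave 7 sub-clusters that are called by number and leading genes; those with barcodes of the OTM library alone may reflect that library and not a cell type. Sub-clusters 4 (Sprr2f, Lcn2, Defb6) and 6 (Krt42, Sparcl1, Fst, Ambn) together held 9 of 126 OTM barcodes (7.14%, 3.32 to 13.1) and 16 of 20 control barcodes (80.0%, 56.3 to 94.3). Summed Odam was highest in these: 13441 CPM in OTM and 8125 CPM in control in sub-cluster 4, and 11148 CPM in OTM and 14758 CPM in control in sub-cluster 6. In sub-cluster 0 (Runx2, Angpt1, Slc1a3; 27 OTM and 4 control barcodes) Odam was at 1952 CPM in OTM and 2323 CPM in control. These sums rest on few barcodes: in control, 1 barcode held 2448 of the 3194 Odam UMIs of sub-cluster 6 and another 305 of the 340 of sub-cluster 0. Without the barcode with most Odam in each library, sub-cluster 6 was at 7830 CPM in OTM and 4230 CPM in control, sub-cluster 0 at 1495 CPM in OTM and 707 CPM in control, and sub-cluster 4 at 11716 CPM in OTM and 7080 CPM in control. The order of the libraries in sub-clusters 6 and 0 thus turned, and no direction for Odam within them is drawn.

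Amtn was nearly confined to sub-cluster 6, where 5 of 6 OTM and 5 of 9 control barcodes had it on, at 1297 CPM in OTM and 1991 CPM in control. Of the 431 control UMIs there 390 lay in 1 barcode, and without the highest barcode of each library the levels were 1119 CPM in OTM and 232 CPM in control, the other way round. The other 2 Amtn barcodes, 1 of each library, were in sub-cluster 0. The remaining 4 sub-clusters held OTM barcodes alone. Sub-cluster 2 (Cstdc5, Chil1, Sprr1b; 33 barcodes) had Odam at 4598 CPM, sub-cluster 1 (Ube2c, Ccnb1, Cdk1; 30 barcodes) at 1300 CPM and sub-cluster 3 (Col1a1, Spp1, Bglap; 7 barcodes) at 1082 CPM. Sub-cluster 5 (Krt13, Krt4, Krtdap; 20 barcodes) stood apart in the members: Odam was at 98.0 CPM, Krt17 at 1961 CPM, and Krt15 at 246 CPM with 7 of the 8 Krt15 barcodes. The Krt1 barcode and 2 of the 3 OTM Krt10 barcodes were there as well, and of the 8 Krt18 barcodes 5 were in sub-cluster 1 and 3 in sub-cluster 5.

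**Figure D3:**
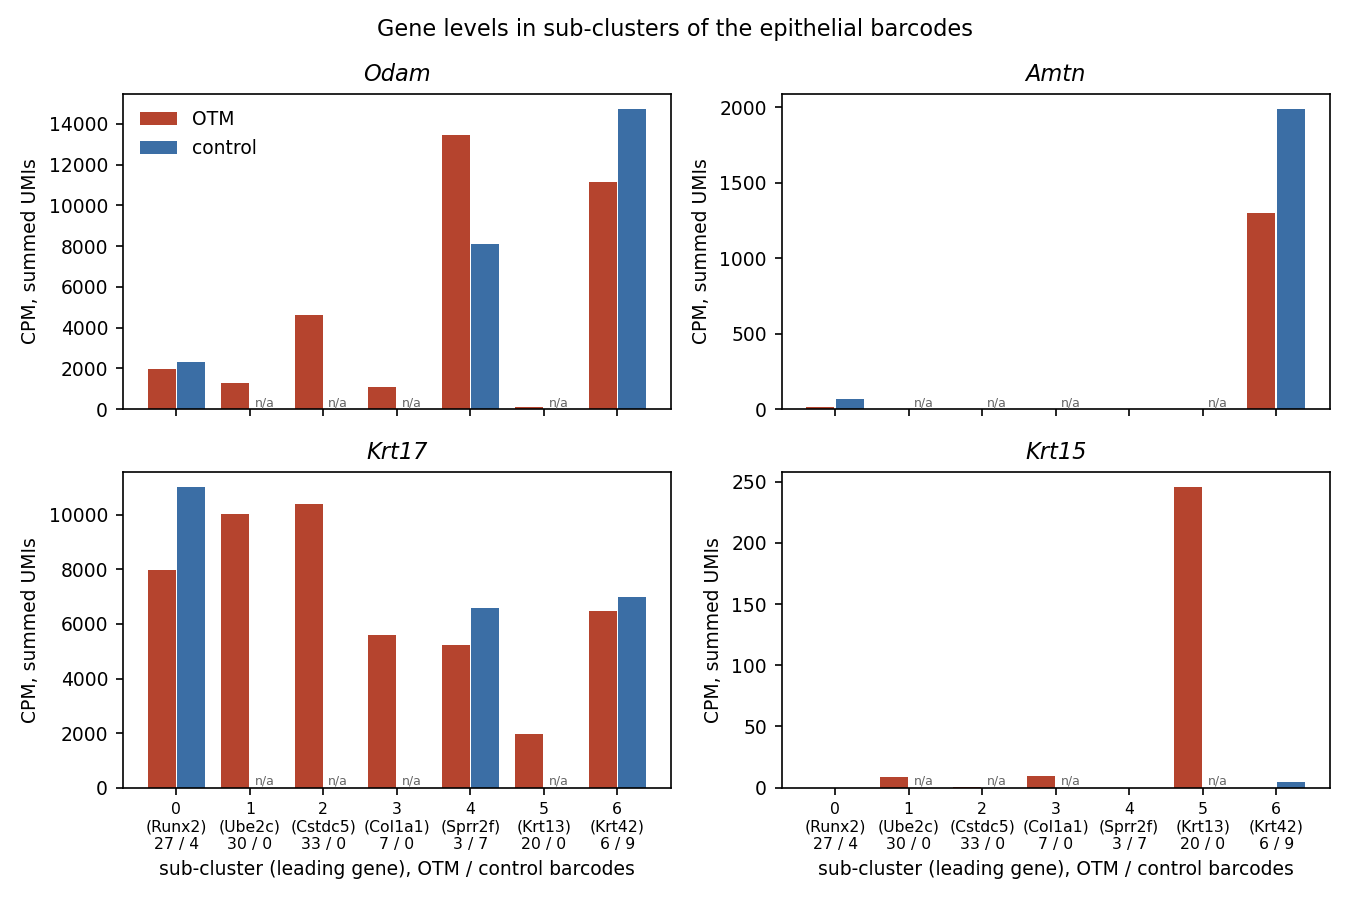
Summed level in CPM of Odam, Amtn, Krt17 and Krt15 (bars; OTM left, control right) in 7 sub-clusters of the epithelial barcodes, each labelled with its leading gene and its number of OTM and control barcodes; n/a marks a sub-cluster without control barcodes. Amtn is at 1297 CPM in OTM and 1991 CPM in control in sub-cluster 6, where 1 barcode holds 390 of the 431 control UMIs, and Krt15 at 246 CPM in sub-cluster 5 of OTM.

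Genes around the 10 were read from lists of epithelial genes, in the same epithelial barcodes, with at least 20 UMIs in the higher library and the same background shares of 8.91% higher and 5.68% lower. The keratins of oral mucosa, Krt4 and Krt13, were both at least 2-fold higher: Krt4 was at 515 CPM in OTM and 9.50 CPM in control (log2 5.76, 4.40 to 7.64) and Krt13 at 1117 CPM in OTM and 28.5 CPM in control (log2 5.29, 4.49 to 6.25). These UMIs came from few barcodes, since Krt4 and Krt13 were on together in 6 of 126 OTM and 1 of 20 control barcodes, and a single OTM barcode held 3127 of 6160 Krt13 UMIs. In OTM barcodes Krt13 was at 4697 CPM where Odam was off and at 5.23 CPM where Odam was on. Krt2, Krt77 and Krt78 had no UMI in either library.

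Of the stress and simple keratins, 5 of 8 were tested, 1 was at least 2-fold higher and 0 lower, with a median log2 ratio of 0.23. Krt6a, a partner of Krt17 in activated epithelium, was at 3467 CPM in OTM and 2949 CPM in control, and Krt16 at 2973 CPM in OTM and 4961 CPM in control; Krt6a and Krt6b are near-identical copies, so the split between them is uncertain. Krt23 had 340 UMIs in OTM and 0 in control, at least 8.66-fold higher. Krt19, a keratin used as a marker of odontogenic rests and junctional epithelium, had 11 UMIs in OTM and 0 in control, and Krt7 had 3 and 0.

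The cornified envelope list had 12 of 16 genes tested, 4 higher and 2 lower, with a median of 0.32. Lgals7 (galectin-7) was at 1470 CPM in OTM and 49.9 CPM in control (log2 4.88, 4.27 to 5.57) and Krtdap (keratinocyte differentiation-associated protein) at 820 CPM in OTM and 30.9 CPM in control (log2 4.73, 3.96 to 5.64). Sprr1b and Sbsn were the other 2 higher genes, and Sprr1a and Dsg1a the 2 lower ones, with Dsg1a at 14.3 CPM in OTM and 52.2 CPM in control. Sprr1a was at 121 CPM in OTM and 394 CPM in control, but 93 of its 166 control UMIs lay in 1 barcode. Loricrin (Lor), late in cornification, had 121 UMIs in OTM and 5 in control and was within 2-fold, filaggrin (Flg) had 1 UMI in OTM and 0 in control, and Tgm3 30 UMIs in OTM and 0 in control.

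Basal adhesion and identity genes stayed mostly within 2-fold: 12 of 12 were tested, 1 was at least 2-fold higher and 2 lower, with a median of -0.41. Sfn (14-3-3 sigma) was at 2921 CPM in OTM and 3555 CPM in control, and Itga6 (integrin alpha 6 of hemidesmosomes) at 527 CPM in OTM and 563 CPM in control. Igfbp2 was lower, at 26.1 CPM in OTM and 83.1 CPM in control, as was Dst at 107 CPM in OTM and 226 CPM in control. Of the 95 control UMIs of Dst, 35 lay in 1 barcode. Igfbp5 had 99 UMIs in OTM and 0 in control.

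Among other genes linked to the junctional epithelium, 9 of 13 were tested, 3 were higher and 1 lower, with a median of 0.57. Cxcl5, a neutrophil chemokine, was at 2296 CPM in OTM and 470 CPM in control (log2 2.29, 2.09 to 2.50), and Slpi, a protease inhibitor, at 905 CPM in OTM and 375 CPM in control. Lcn2 was the other higher gene, but 840 of its 876 OTM UMIs lay in 1 barcode. Lgals3 (galectin-3) was at 1440 CPM in OTM and 1598 CPM in control. Cldn1 (claudin-1) was lower, at 54.2 CPM in OTM and 271 CPM in control (log2 -2.32, -2.64 to -2.00), but 70 of its 114 control UMIs lay in 1 barcode. Csn3 had 48 UMIs in OTM and 0 in control, at least 1.22-fold higher. Cxcl5 and Slpi were thus higher in the library in which Odam and Amtn were lower.

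The enamel matrix genes were close to absent. Amelx and Mmp20 had no UMI in either library, Enam had 4 UMIs in OTM and 0 in control, and Ambn (ameloblastin) had 42 UMIs in OTM, 40 of them in 1 barcode, and 19 in control. Tuft1 was the 1 gene tested of 8 and lay within 2-fold, at 40.3 CPM in OTM and 28.5 CPM in control; Wdr72 had 82 UMIs in OTM and 16 in control. Of the regulators of odontogenic epithelium, 7 of 12 were tested, 0 were higher and 3 (Msx2, Irx1 and Lgr6) lower. Lgr6 was at 60.8 CPM in OTM and 204 CPM in control, and Irx1 at 6.17 CPM in OTM and 47.5 CPM in control, while Pax9 had 31 UMIs in OTM and 0 in control.

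All 8 proliferation genes were tested and at least 2-fold higher in OTM, with a median log2 ratio of 3.22. Mki67 had 546 UMIs in OTM and 0 in control, at least 13.9-fold higher, Birc5 was at 128 CPM in OTM and 2.37 CPM in control, and Pcna at 123 CPM in OTM and 59.4 CPM in control. In OTM, Mki67 had 0 UMIs in the 6 Amtn barcodes, and was at 85.6 CPM with Odam on and Amtn off and at 159 CPM where Odam was off. Control cannot show such a difference, since no control epithelial barcode had an Mki67 UMI.

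For each pair of genes, the 5 most alike genes over the 126 OTM epithelial barcodes were taken from 11386 candidates by Pearson's r of the log level, with r over the 20 control barcodes beside it; these correlations describe barcodes of 1 library each. Ecm1 (extracellular matrix protein 1) was most like Odam with Amtn, at 0.67 in OTM and 0.48 in control, followed by Ggt1 at 0.64 and 0.45, Clu (clusterin) at 0.62 and 0.64, 2200002D01Rik at 0.56 and 0.15, and Mal at 0.54 and 0.36. For Krt5 with Krt14 the genes were Krt6a at 0.58 in OTM and 0.71 in control, Gsto1 at 0.55 and 0.46, Krt6b at 0.50 and 0.62, Perp at 0.49 and 0.19, and Cstb at 0.48 and 0.41. Those named for Krt1 with Krt10 (Aldh3b2, Efna3, Selenbp1, Krt13 and Cyp2s1, at 0.44 to 0.53 in OTM) belong to a pair of which Krt1 was seen in 1 barcode alone. The list for Krt15, made after its barcodes had been seen, was led by Prxl2a, Mt3 and Ces1h at 0.77 to 0.78 in OTM, of which Mt3 and Ces1h had no UMI in control epithelial barcodes.

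Outside the epithelial barcodes the genes fell into 2 kinds. Of all UMIs of the 10 genes, 98.8% in OTM and 98.1% in control were in epithelial barcodes, and the other kept barcodes held 1239 UMIs in OTM and 233 in control. For Krt14, 174 of 1286 other OTM barcodes (13.5%) and 25 of 328 other control barcodes (7.62%) had at least 1 UMI, of which 156 in OTM and 20 in control had exactly 1. Its level there was 16.1 CPM in OTM and 6.57 CPM in control; a mural OTM barcode with 287 Krt14, 14 Krt5, 11 Krt17 and 5 Odam UMIs held most of the 482 OTM UMIs. Without the barcodes with 10 or more UMIs of the 10 genes the Krt14 count was 195 UMIs in OTM and 28 in control. Thinned to 1500 UMIs, which left out 37 OTM and 48 control barcodes, Krt14 was seen in 10 other OTM barcodes (0.801%) and 4 other control barcodes (1.43%), so the order of the shares at full depth was not kept. Amtn had 0 UMIs in the 1286 other OTM barcodes and 4 in the 328 of control.

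The low counts outside the epithelium were set beside the mix of their library. Other barcodes with 10 or more UMIs of the 10 genes were left out here, which kept 1282 in OTM and 326 in control. Of the UMIs of Krt5, Krt14, Krt17 and Odam, Krt14 made up 49.3% in OTM epithelial barcodes and 53.0% (47.7 to 58.2) in these other OTM barcodes. Krt17 made up 27.3% and 21.7% (17.6 to 26.3) of them, Krt5 14.2% and 18.8% (14.9 to 23.1), and Odam 9.12% and 6.52% (4.22 to 9.55). In blood-lineage barcodes of OTM, which should lack all 4, the shares were 48.2%, 26.4%, 19.1% and 6.36% in the same order. In control, the other barcodes with under 10 UMIs of the 10 genes held 52 such UMIs. Krt14 made up 53.8% (39.5 to 67.8) of them, against 37.9% in epithelial barcodes, and Krt17 9.62% (3.20 to 21.0), against 21.4%. Krt5 made up 30.8% (18.7 to 45.1), against 16.2%, and Odam 5.77% (1.21 to 15.9), against 24.5%. The epithelial share thus lay outside the interval for all 4 genes in control, and for Krt17 and Krt5 in OTM. Without the barcode with most Odam in each library, the epithelial shares of Krt14, Krt17, Krt5 and Odam were 49.8%, 27.5%, 14.4% and 8.29% in OTM and 43.4%, 25.8%, 19.1% and 11.7% in control. With these shares Krt17 alone lay outside its interval in control, while Krt17 and Krt5 still did in OTM. Barcodes left out by the filters also held these genes, 634 UMIs in OTM and 92 in control, and they are described in the closing section.

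**Figure D4:**
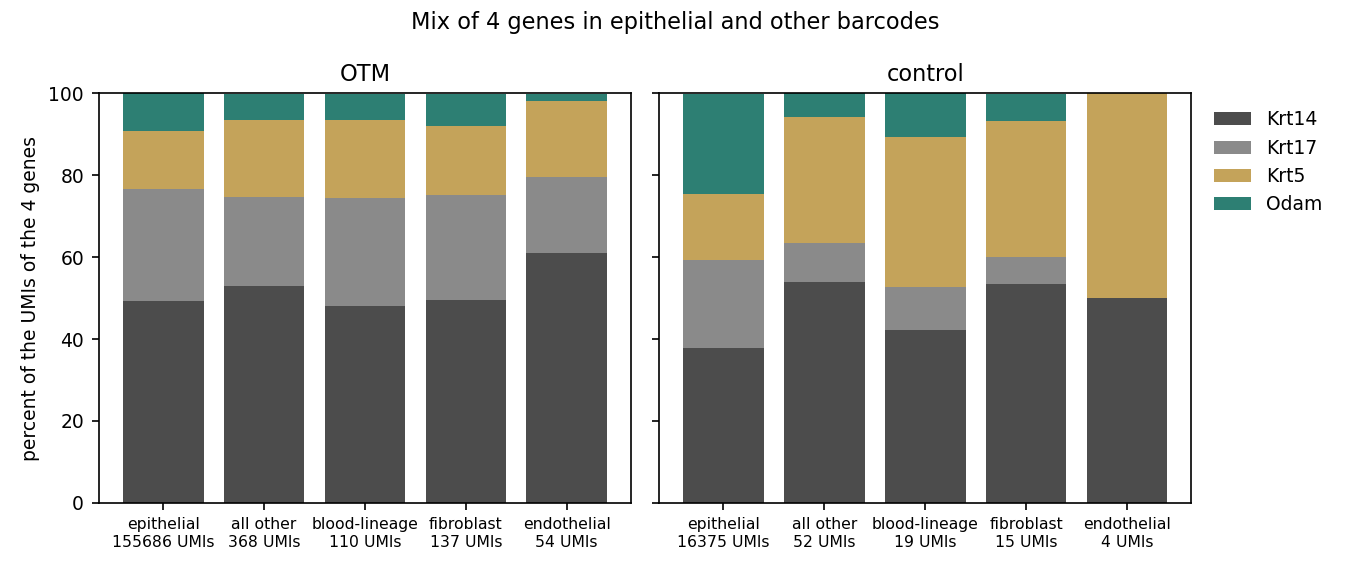
Percent of the summed UMIs of Krt14, Krt17, Krt5 and Odam in epithelial barcodes and in other barcodes with under 10 UMIs of the 10 genes (OTM left, control right), with the number of UMIs under each bar. Krt14 makes up 49.3% in OTM epithelial barcodes and 53.0% in these other OTM barcodes. Odam makes up 24.5% in control epithelial and 5.77% in these other control barcodes. Without the control barcode with most Odam, the control epithelial share of Odam is 11.7%.

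Krt10 and Krt18 had a larger share of their UMIs outside the epithelium than Krt14. Of Krt10 UMIs in kept barcodes, 66.4% in OTM and 85.9% in control lay outside the epithelium. Fibroblasts had Krt10 at 22.7 CPM (20.2 to 25.4) in OTM and 18.5 CPM (13.6 to 24.7) in control, and the osteoblast lineage at 15.5 CPM in OTM and 23.9 CPM in control. Blood-lineage barcodes had 4.77 CPM (3.17 to 6.90) in OTM and 0.745 CPM (0.0189 to 4.15) in control, and endothelial barcodes 5.86 CPM in OTM and 0 CPM in control. The fibroblast level thus stood below the 42.6 CPM of epithelial barcodes in OTM, which is 24.2 CPM without the highest barcode, and inside the interval of the 26.1 CPM (13.0 to 46.7) of epithelial barcodes in control.

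Krt18 was concentrated in a fibroblast cluster led by Pcp4 and Wif1, with 92 OTM and 85 control barcodes. It was at 31.5 CPM in OTM and 48.5 CPM in control there, and had a UMI in 16.3% of OTM and 36.5% of control barcodes, at medians of 15256.5 UMIs in OTM and 19709 UMIs in control. Thinned to 1500 UMIs these shares were 3.30% in OTM and 7.06% in control. The other fibroblasts had 0.765 CPM in OTM and 0 CPM in control, and the epithelial barcodes 25.4 CPM in OTM and 4.75 CPM in control. Krt8, its usual partner, had 3 UMIs in that cluster in OTM and 0 in control. Taking the kept barcodes as a whole, 36.1% of Krt18 UMIs in OTM and 97.9% in control were outside the epithelial barcodes. The fibroblast counts rest on few barcodes in OTM. Of the Krt18 UMIs of all fibroblasts, 1 barcode held 20 of 67 in OTM and 13 of 87 in control. Without fibroblast barcodes with 10 or more UMIs of the 10 genes, 31 Krt18 UMIs were left in OTM and 74 in control.

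**Figure D5:**
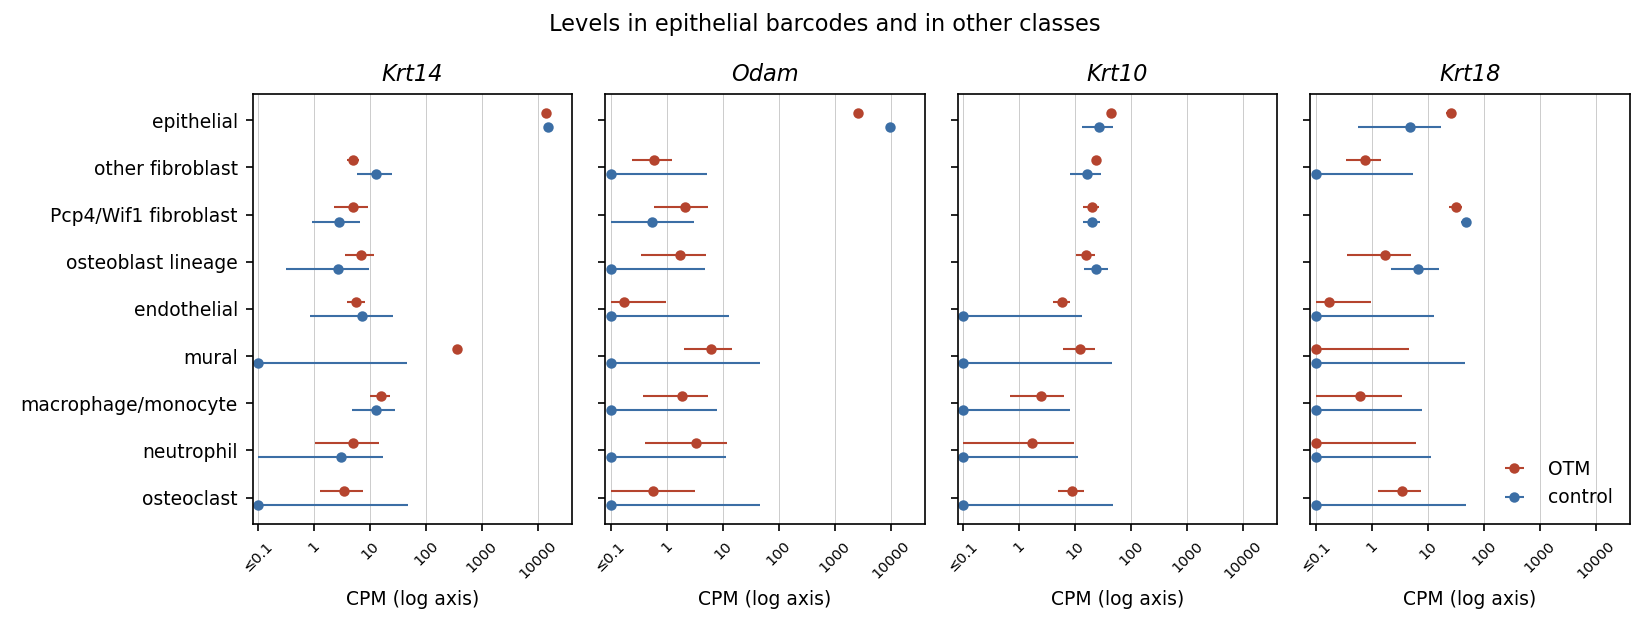
Level in CPM on a log axis (values up to 0.1 at the left edge) of Krt14, Odam, Krt10 and Krt18 in the epithelial barcodes and 8 other classes, OTM above control in each row, with exact Poisson intervals. Krt14 is at 13932 CPM in OTM and 14737 CPM in control in epithelial barcodes, and the mural point of OTM rests on 1 barcode. Krt18 in the Pcp4 and Wif1 fibroblasts stands at 31.5 CPM in OTM and 48.5 CPM in control. Of the Krt18 UMIs of all fibroblasts, 1 barcode holds 20 of 67 in OTM and 13 of 87 in control.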

How the data were processed

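The deposited values were UMI counts per gene and barcode in whole numbers, without normalization, which per the file headers the authors produced in Cell Ranger 7.0.1. The genome builds listed in the submitters' processing notes are GRCm38 and mm10, and Seurat is listed without a version. Any cell filter of the authors is not given in the sources used here. The genes and lists were chosen with earlier results of these data known.

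Barcodes with at least 200 genes and at most 20% mitochondrial UMIs were kept. Both libraries were clustered together with scanpy 1.11.5 (2000 variable genes without the 10 genes, 30 components, 15 neighbours, Leiden resolution 1.0, seed 0), and clusters were named from markers without the 10 genes. A cluster with low depth or few markers stayed unnamed. Doublets were called with Scrublet per library (8 in OTM, 2 in control) and kept. Sub-clusters used 1000 variable genes, 10 components and resolution 0.8.

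Levels were UMIs summed over barcodes per 1000000. A gene was on in a barcode at 3 UMIs or more that made up at least 1 in 10000 of its UMIs. With 1 library per condition no p-value was computed. Ratios needed 20 UMIs in the library with the higher level, and genes past 2-fold were called. For these calls and the medians of lists, sums under 3 UMIs were set to 3; the log2 ratios printed with intervals use the sums as counted. The ratio step was tested on simulated data. From each list the 2 genes with the most UMIs and those with the highest and lowest ratio were named (ties at no control UMI by list order); other genes were named after their values were seen. A gene that this rule names is not reported here. Promoters were the 250 bases before RefSeq starts.

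Intervals were computed with scipy 1.17.1 under Python 3.11.15. The alternatives were no filter or a stricter one, doublets removed, the 10 genes used in the clustering, epithelial calls from 4 or more markers, means over barcodes, other on thresholds and UMI minimums, and thinning to 1500 UMIs.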

Additional observations from a re-analysis of the deposited data

Results flagged for a closer look

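Barcodes removed by the filters (127 in OTM, 21 in control) were in no comparison, yet held UMIs of the genes above the floor of 3 UMIs that a count of 0 allows. In OTM they held 382 Krt14, 92 Krt5, 79 Krt17 and 81 Odam UMIs. Krt14 was seen in 26 of the 127 OTM barcodes, at most 107 UMIs in one of them, and its level over them was 776 CPM. In control, 62 Krt14, 24 Krt5 and 6 Odam UMIs were all in 1 barcode. With no spread between libraries to be had, single samples could not be checked as outliers, and differences between groups of libraries could not be tested.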

How the results depend on the processing

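No paired analysis was possible because each condition was 1 library, and no replicate could be left out. No ratio past 2-fold (Krt15, Krt18, Odam, Amtn) changed sign under any alternative run. Krt15 and Krt18 had no ratio without the top barcode of each library, since 0 control UMIs were then left. Of 284 alternative values, 224 stayed within the counting interval of the reported value (or within 1.5 times a reported count) and 60 moved out of it; 16 of the 60 are levels of Odam and Amtn in sub-clusters or sets of barcodes without their top barcode. Leaving out barcodes by top count, Col1a1 or Krt4 and Krt13 was chosen after seeing the data. The log2 ratio of Odam was -2.47 with no barcode filter, -1.77 without barcodes with Krt4 and Krt13 on, -1.60 as a mean over barcodes and -0.81 without the top barcode of each library; that of Amtn was -4.06 with no filter, -3.47 as a mean over barcodes and -2.22 without the top barcodes. With no filter the epithelial cluster held 94 OTM and 14 control barcodes, since a second cluster with epithelial genes stayed unnamed, and Krt14 in other barcodes was then 839 CPM in OTM and 312 CPM in control. It was 48.0 CPM in OTM where barcodes were called epithelial from 4 or more markers, and 9.52 CPM in control after thinning to 1500 UMIs. Odam was on in 82.5% of OTM barcodes at 1 UMI, 57.1% at 10 UMIs and 59.5% after thinning. Basal keratin with Krt17 and junctional genes alone made up 31.7% of OTM and 55% of control barcodes at 1 UMI, and in OTM 52.4% at 10 UMIs and 49.6% after thinning. All tested genes at least 2-fold lower numbered 403, against 1506 with a minimum of 1 UMI and 141 with 50; list genes lower numbered 8, against 4 with 50. Among genes within 2-fold, 3 had log2 ratios on both sides of 0: Krt10 from -0.82 to 0.71, Krt17 from -0.17 to 0.36 and Krt14 from -0.11 to 0.08; the cause was not tested for any value here. Without the 6 Col1a1 barcodes no log2 ratio or share that was computed again moved out of its interval. Levels in CPM were not computed again without them. Depth limits the control side most: 20 barcodes and 421108 UMIs let a count of 0 hide a share of up to 16.8%.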
